A study of Danio rerio with 6 samples.

Results

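The genes for the proteins of the cytosolic ribosome were compared between 2 kinds of zebrafish tumour. They were taken by symbol from the array's platform annotation, as symbols of the form rpl or rps followed by a number together with rpsa and the stalk protein genes, without the rps6k kinases. This gave 79 probe sets for 74 of the 8793 genes measured, 45 of the large subunit and 29 of the small subunit. One of them, rplp2b, was matched through its older symbol rplp2l. Of the 74 genes, 69 are structural ribosomal protein genes by name, and 5 are not or are variant copies: rpl7l1, rpl22l1, rps26l, rps27l and rps19bp1, the last being a binding partner of rps19 and no ribosomal protein.

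The tumours were 3 small round blue cell tumours (SRBCT), labelled Ewing's sarcoma-like, from fish with genotype Tg(HSP:EWS-FLI1); p53M214K/M214K, and 3 malignant peripheral nerve sheath tumours (MPNST) from p53M214K/M214K fish. The transgene of the SRBCT group puts the human EWS-FLI1 fusion under a heat shock promoter and was injected as a transposon into embryos. Its insertions were not measured here. The p53 M214K change is homozygous in both groups, and no group with normal p53 is present. RNA of each tumour was read on its own Affymetrix array, and the titles call the replicates biological.

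The eukaryotic ribosome has a large subunit, which joins amino acids into protein, and a small subunit, which reads the mRNA. Each holds a set of proteins made in nearly equal numbers, and their mRNAs begin with a run of pyrimidines through which growth signals set how strongly they are translated. The genes have a particular history in zebrafish, where fish heterozygous for mutations in many of them develop MPNST, and such tumours lack p53 protein. An array measures mRNA, not translation or the number of ribosomes.

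No ribosomal protein gene passed the test between the tumour types. Of the 79 probe sets limma called 0 higher and 0 lower in SRBCT at a Benjamini-Hochberg adjusted p under 0.05. Of all 15502 tested probe sets it called 0.903%, made up of 0.0903% higher and 0.813% lower. Without SRBCT 3 the share of all probe sets called was 7.35%, and again 0 members were called. The smallest adjusted p of a member was 0.273. At an unadjusted p under 0.05 there were 3 members, or 3.8%, against 15.2% of all probe sets. Each difference below is the SRBCT mean minus the MPNST mean in log2 units and is positive where SRBCT was higher. Over the 74 genes they ran from -0.67 to 0.62 with a median of 0.04, and the median over all genes was 0.07.

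For 68 of the 74 genes (91.9%) the 95% interval of the difference lay within 1 log2 unit on either side of 0, as it did for 39.5% of all genes. The exceptions were rpl4, rps26, rpl7l1, rpl22l1, rps26l and rps27l. The median half-width of the interval was 0.47 for the members and 0.76 for all genes. The median SD was 0.118 within SRBCT and 0.17 within MPNST, against 0.403 and 0.28 for all genes. Other bright genes were nearer to the members than all genes were: of 35 with a mean level above 12, 30 had the interval within 1 log2 unit. The median half-width of the 35 was 0.55, and their median SD was 0.222 within SRBCT and 0.15 within MPNST. These 35 are not apart from translation, as they include faua and rack1, which belong to the ribosome under other names, and elongation factor genes. Precision is limited by 3 arrays in each group.

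**Figure D1:**
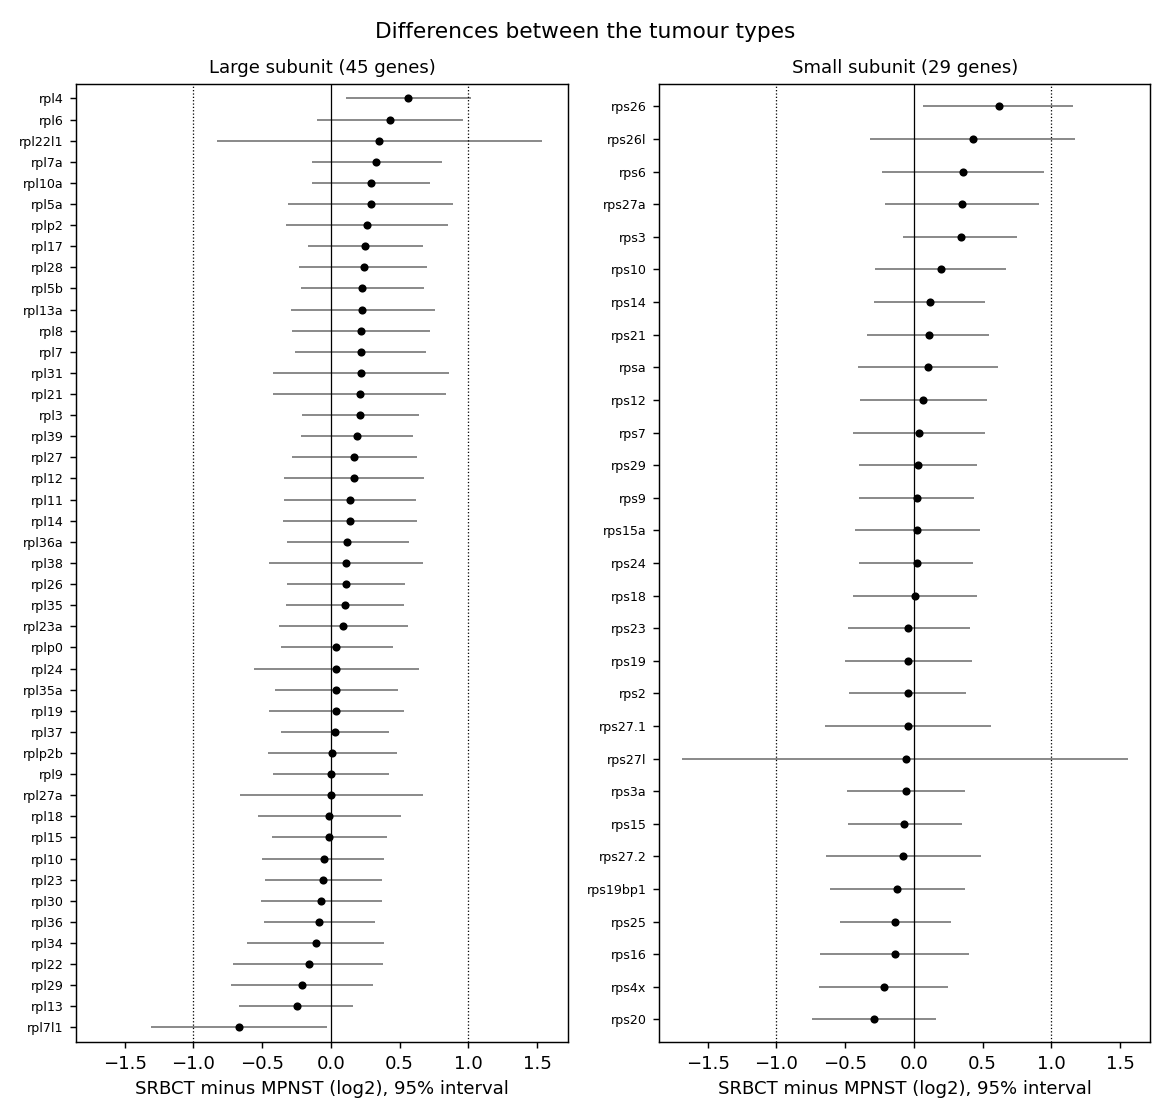
Log2 difference, SRBCT minus MPNST, for 45 large subunit genes (left) and 29 small subunit genes (right), with 95% intervals from the limma fit; dotted lines mark 1 log2 unit on either side of 0. All intervals but those of rpl4, rps26 and rpl7l1 include 0, most lie between the dotted lines, and the widest belongs to rps27l.

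These signals lay at the top of the scale of the array. Of the 74 genes 69 had a mean level above 12, with rps2, a protein of the small subunit's mRNA entry site, at a mean of 13.7, while the highest single value on any array was 13.88. Members made up 68 of the 100 brightest probe sets. Brightness also depends on a probe set's own probes, so the levels do not rank the transcripts. The highest mean level of any called probe set was 10.5. Among the 35 other genes above 12 none was called either, where 0.876% of all genes were. The differences of these 35 ran from -0.32 to 0.54. From 68 to 70 members lay in the top 1% of the probe sets of each array. RMA quantile-normalizes, which draws the arrays to a common distribution. A shift shared by most members could thus be reduced, and small differences do not show that the total of these mRNAs was equal. The bearing of the high signal and of the normalization on the size of the differences was not tested.

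**Figure D2:**
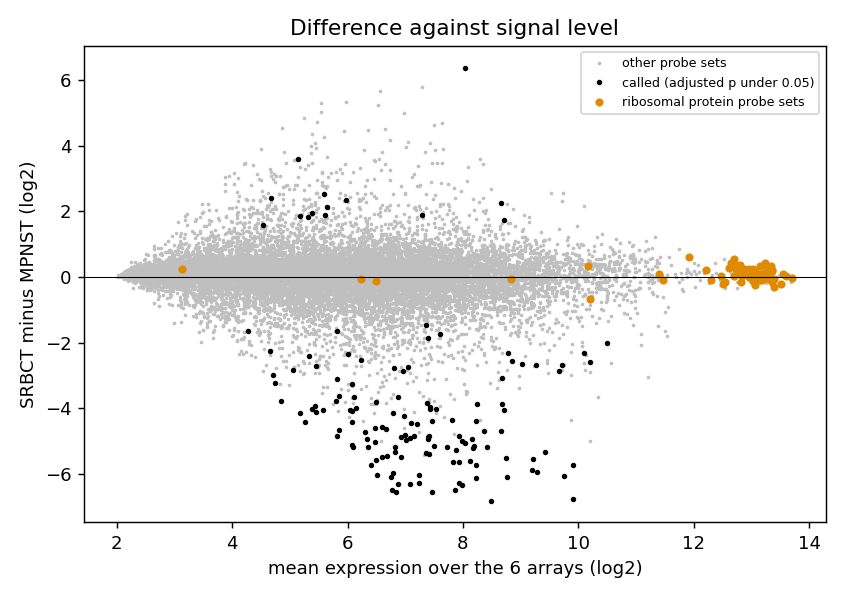
Log2 difference, SRBCT minus MPNST (vertical), against mean log2 expression over the 6 arrays (horizontal) for 15502 probe sets; orange points are ribosomal protein probe sets and black points are called probe sets. The orange points gather above 12 and close to 0, and no black point lies above 10.5.

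The median difference was 0.11 over the 45 large subunit genes, of which 34 were above 0, and 0.02 over the 29 small subunit genes, of which 16 were above 0. Of all genes 55.9% were above 0. When each gene was set against its own mean over the 6 arrays, the large minus small median was 0.02, 0 and 0.03 on the SRBCT arrays, against -0.09, -0.04 and -0.03 on the MPNST arrays. The groups did not overlap, with all SRBCT arrays above all MPNST arrays. The median differences of the subunits lay 0.09 log2 units apart. The large minus small median of each array, a different measure from this gap, had a pooled SD of 0.0249 between arrays of a group. The gap has no test here, and 3 arrays against 3 can give no exact permutation p below 0.1. Among all 74 genes the arrays of the groups did not overlap for 9 that were higher in SRBCT (12.2%, against 12.3% of all genes) and for 3 that were lower (4.05%, against 10% of all genes).

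**Figure D3:**
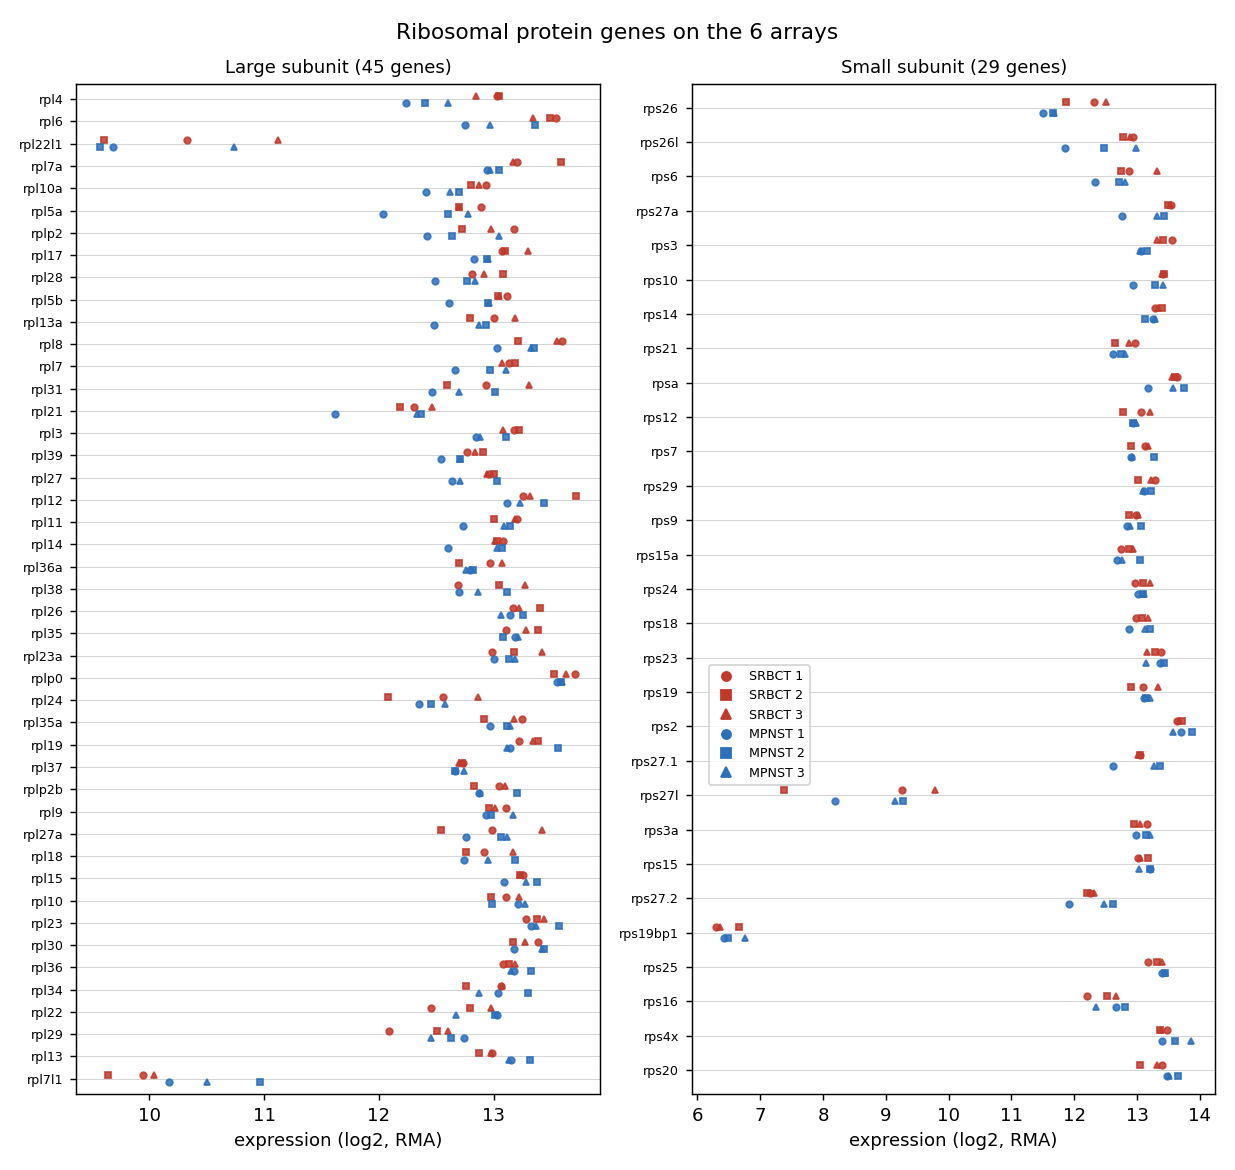
Log2 RMA expression of each ribosomal protein gene on the 3 SRBCT arrays (red, upper row of each pair) and the 3 MPNST arrays (blue, lower row), with genes sorted by their difference. The red and blue points overlap for most genes, and the MPNST 1 circle is often the lowest point.

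Among large subunit proteins the largest positive difference was in rpl4, whose protein lines the tunnel through which the new chain leaves the ribosome. It was at 13.03, 13.05 and 12.85 in SRBCT, against 12.24, 12.4 and 12.6 in MPNST. All SRBCT arrays were above all MPNST arrays, by a mean of 0.56 (SE 0.19, 95% interval 0.11 to 1.02, adjusted p 0.273). rpl6 followed, at 13.54, 13.49 and 13.34 in SRBCT, against 12.75, 13.36 and 12.97 in MPNST. SRBCT 3 lay just below MPNST 2, so the groups overlapped (difference 0.43, SE 0.22).

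rpl7a was at 13.2, 13.59 and 13.17 in SRBCT and at 12.94, 13.05 and 12.97 in MPNST. Its groups were apart, with SRBCT 2 the highest array (difference 0.33, SE 0.20). rpl10a was apart too, at 12.93, 12.8 and 12.87 in SRBCT and 12.41, 12.7 and 12.62 in MPNST (difference 0.29, SE 0.18). In the other direction rpl13 was at 12.99, 12.87 and 12.98 in SRBCT and at 13.15, 13.32 and 13.13 in MPNST. This was the only structural large subunit gene with all SRBCT arrays below all MPNST arrays (difference -0.25, SE 0.17). The values of rpl29 and rpl34 overlapped between groups, with differences of -0.21 and -0.11.

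The 5S particle of the large subunit joins the 5S RNA to Rpl5 and Rpl11, and free of the ribosome these proteins bind Mdm2 and restrain its action on p53, a link known from mammals. rpl5a was at 12.89, 12.7 and 12.7 in SRBCT, against 12.04, 12.6 and 12.78 in MPNST (difference 0.29, SE 0.25). Its paralog rpl5b was at 13.12, 13.04 and 13.05 in SRBCT, against 12.61, 12.95 and 12.96 in MPNST (difference 0.23, SE 0.19). MPNST 1 was the lowest array for both, and the groups were apart for rpl5b and overlapped for rpl5a. rpl11 differed by 0.14 (SE 0.20) and rpl23, which also binds Mdm2, by -0.06 (SE 0.17), with overlapping groups.

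The stalk proteins recruit the elongation factors. rplp0, the base of the stalk and a common reference gene in expression assays, spanned 0.18 log2 units over the 6 arrays, at 13.71, 13.53 and 13.63 in SRBCT and 13.55, 13.59 and 13.6 in MPNST. Its difference was 0.04 with a 95% interval from -0.36 to 0.45. The other stalk genes were also within their spread, rplp2 differing by 0.26 (SE 0.24) and rplp2b by 0.01 (SE 0.19). The narrowest range over the 6 arrays among the members was 0.08, in rpl37. The median range was 0.47 for the members, 0.7 for the other genes with a mean level above 12 and 1.19 for all genes.

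Among small subunit proteins the largest difference was in rps26, whose protein sits at the exit of the mRNA channel. It was at 12.32, 11.87 and 12.5 in SRBCT, against 11.51, 11.66 and 11.67 in MPNST. The MPNST arrays lay close together and below all SRBCT arrays, with a difference of 0.62 (SE 0.22, 95% interval 0.07 to 1.16, 1.53-fold, adjusted p 0.293). rps3, a protein of the mRNA entry site, was at 13.55, 13.41 and 13.32 in SRBCT and at 13.07, 13.16 and 13.04 in MPNST (difference 0.34, SE 0.17). rps27a, which is made as a fusion with ubiquitin, was at 13.54, 13.49 and 13.53 in SRBCT and at 12.76, 13.43 and 13.31 in MPNST. Its groups were only just apart, and MPNST 1 lay far below the other MPNST arrays (difference 0.35, SE 0.23).

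rps6, the ribosomal substrate of the S6 kinases, overlapped between groups at 12.87, 12.75 and 13.32 in SRBCT and 12.33, 12.72 and 12.81 in MPNST (difference 0.36, SE 0.24). rps20 had the largest negative difference among structural genes, at 13.39, 13.05 and 13.32 in SRBCT, against 13.47, 13.65 and 13.51 in MPNST (-0.29, SE 0.19). The groups of rps20 did not overlap, whereas those of rps4x (-0.22) and rps16 (-0.14) did, and those of rps25 (-0.14) met at 13.39. rpsa, a small subunit protein also known as the laminin receptor, was at 13.63, 13.61 and 13.55 in SRBCT and at 13.18, 13.74 and 13.57 in MPNST. Its MPNST values lay on both sides of the SRBCT values (difference 0.10, SE 0.21).

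In humans, loss of 1 copy of certain of these genes causes Diamond-Blackfan anaemia, a failure of red cell production. Of their zebrafish counterparts 9 were measured, counting rpl5a and rpl5b. None was called, and 8 of the 9 had differences above 0 with a median of 0.14, while 67.6% of all members and 55.9% of all genes were above 0. MPNST 1 was the lowest array for 6 of the 9, with a relative median of -0.33, against -0.05 to 0.14 on the other arrays. rps19, the gene most often affected in patients, was at 13.09, 12.91 and 13.33 in SRBCT and at 13.11, 13.14 and 13.21 in MPNST. Its SRBCT values enclosed the MPNST values (difference -0.04, 95% interval -0.50 to 0.42). rps26, described above, had the largest difference of the group (0.62, SE 0.22). rpl5a, rpl5b and rpl11 are given above, and the others differed by 0.20 (rps10), 0.04 (rps7), 0.04 (rpl35a) and 0.02 (rps24).

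Of the variant and related genes, rps27l, rpl22l1, rpl7l1 and rps26l spanned 1.12 to 2.41 log2 units over the 6 arrays, and rps19bp1 spanned 0.47. The median over the structural genes was 0.45. rpl7l1, a relative of rpl7 that acts in ribosome assembly, was at 9.94, 9.64 and 10.04 in SRBCT, against 10.17, 10.96 and 10.5 in MPNST. All SRBCT arrays were below all MPNST arrays (difference -0.67, SE 0.26, 95% interval -1.31 to -0.03, adjusted p 0.31). rpl7 itself had a difference of the opposite sign, 0.22 (SE 0.19). The level of rpl7l1 minus that of rpl7 averaged -3.26 ± 0.266 in SRBCT and -2.37 ± 0.317 in MPNST (SD, n = 3). The groups did not overlap and differed by -0.89, and the exact two-sided permutation p was 0.1, the smallest that 3 arrays against 3 can give. It was 0.7 after Benjamini-Hochberg adjustment over the 7 pairs compared.

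rpl22l1, the paralog that can stand in for rpl22, was at 10.33, 9.6 and 11.12 in SRBCT and at 9.68, 9.57 and 10.74 in MPNST. The array labelled 3 was the highest of each group, and the groups overlapped (difference 0.35, SE 0.49). rpl22 differed by -0.16 (SE 0.22). rps27l, whose human counterpart is a p53 target, had the widest range of all members, 2.41 log2 units. It was at 9.26, 7.38 and 9.79 in SRBCT and at 8.19, 9.28 and 9.15 in MPNST, with SRBCT 2 far below the other SRBCT arrays (difference -0.06, SE 0.67). Both groups carry the same p53 mutation, so the dependence of rps27l on p53 was not measured.

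rps27.1 and rps27.2 had nearly the same profile: the second minus the first was between -0.84 and -0.69 on the 6 arrays, and MPNST 1 was the lowest array for both. Near-identical copies can share probes, so these genes may not be measured apart. The 3 probe sets of rps27.1 differed by -0.04, -0.09 and 0.08. rps26l overlapped between groups at 12.93, 12.77 and 12.89 in SRBCT and 11.86, 12.47 and 12.98 in MPNST (difference 0.43, SE 0.31). For the pairs rpl22 and rpl22l1, rpl5a and rpl5b, rps26 and rps26l, rplp2 and rplp2b, rps27.1 and rps27.2, and rps27.1 and rps27l, the exact permutation p of the difference within the pair was 0.4 or higher. rps19bp1 was dim at 6.44 ± 0.197 in SRBCT and 6.56 ± 0.18 in MPNST (SD, n = 3). For rpl21 the probe sets disagreed in level, 1 being at 2.91 to 3.33 and the other at 11.62 to 12.46.

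**Figure D4:**
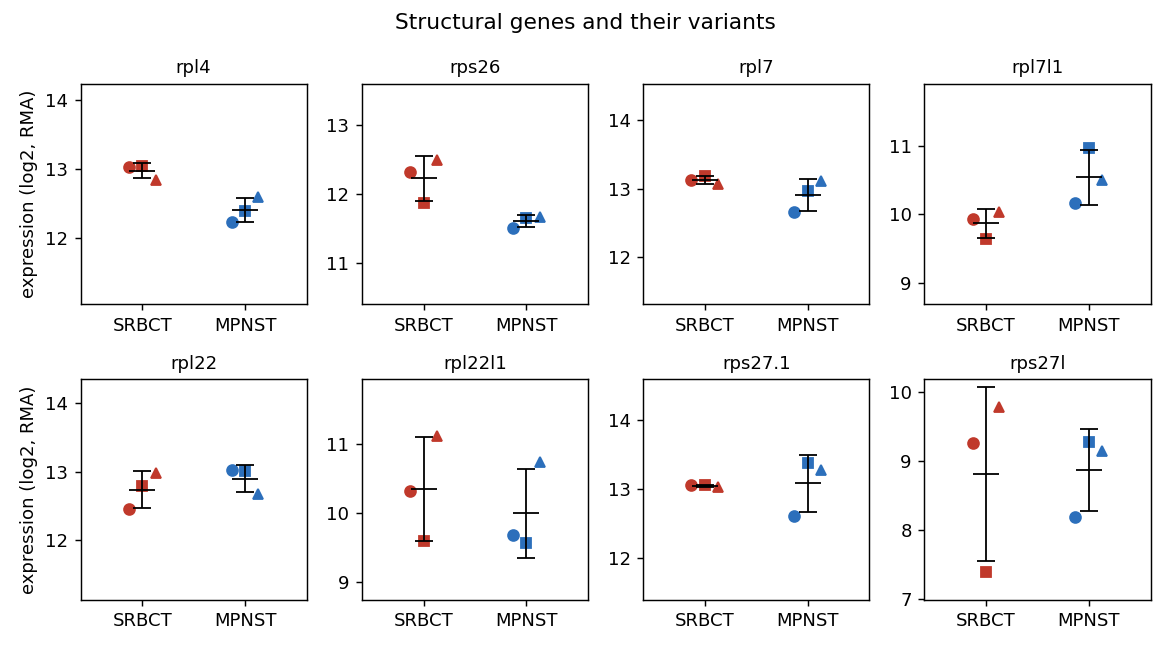
Log2 RMA expression on each array for rpl4, rps26 and 3 pairs of a structural gene and its relative; bars are the mean and SD of 3 arrays, and every panel spans the same number of log2 units. rpl4, rps26 and rpl7l1 have groups that do not overlap, while rpl22l1 and rps27l spread widely within each group.

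The array MPNST 1 stood lower than the others for many members. It was strictly the lowest array for 36 of 74 genes (48.6%), 23 of the large and 13 of the small subunit, and for 24.3% of all genes. SRBCT 3 was the lowest for 0 members. Relative to each gene's mean, the median of the large subunit genes was 0.06, -0.02 and 0.09 in SRBCT, against -0.20, 0.05 and -0.01 in MPNST. That of the small subunit genes was 0.04, -0.02 and 0.06 in SRBCT, against -0.12, 0.09 and 0.02 in MPNST. Over all genes the relative median was 0.01, -0.04 and 0.03 in SRBCT, against -0.1, -0.02 and -0.04 in MPNST, so MPNST 1 was the lowest there too. Without MPNST 1 the median difference was 0.03 over the large and -0.04 over the small subunit genes, and 0.05 over all genes. Without MPNST 1 the difference also shrank for single genes whose difference was positive. It fell to 0.07 for rpl5a, 0.11 for rpl5b, 0.29 for rpl6, 0.01 for rpl11, 0.11 for rplp2 and 0.09 for rpl7. It fell to 0.19 for rpl22l1, 0.14 for rps26l, 0.15 for rps27a, 0.21 for rps6 and 0.06 for rps10. It was 0.48 for rpl4, 0.56 for rps26 and 0.33 for rps3. The negative difference of rpl7l1 instead widened, from -0.67 to -0.86. Without SRBCT 3 the 2 subunits had medians of 0.04 and -0.03.

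Markers of other tissues were also uneven over the arrays, and in whole tumours fewer cells of a type cannot be told apart from less RNA per cell. Liver markers (11 of 17 listed were measured, 4 of them with a mean level under 5) had a summed linear signal of 329 to 1230 in SRBCT and 784 to 21800 in MPNST, the highest on MPNST 1. Ovary and oocyte markers (17 of 22) summed to 364 to 608 in SRBCT and 7860 to 23700 in MPNST, again with MPNST 1 at the top. Leukocyte markers (13 of 16) summed to 2330 to 5920 in SRBCT and 6610 to 12200 in MPNST, with the highest sum on MPNST 1. Erythroid markers (7 of 11, 3 of them with a mean level under 5) summed to 851 to 1990 in SRBCT and 2070 to 5710 in MPNST, with the lowest MPNST sum on MPNST 1. The brightest of them, hbaa1, weighs heavily in that sum, with a mean level of 10.95 against a median of 5.74 for the list. The list's relative median was -0.65, -0.17 and -0.30 in SRBCT, against -0.22, 1.02 and 0.75 in MPNST, so by that measure the groups overlapped. The part of these marker lists in the lower ribosomal protein values of MPNST 1 was not tested. Intestine and pancreas markers (16 of 20) were highest on SRBCT 3, at 20700 against 434 to 2100 on the other arrays. Neuron and progenitor markers (18 of 19) summed to 15100, 19200 and 3210 on SRBCT 1, 2 and 3, and to 2190 to 2780 in MPNST. Schwann cell and neural crest markers (10 of 14) summed to 4020, 2850 and 12000 in SRBCT and to 5820, 8160 and 9110 in MPNST, with single differences from -4.26 to 3.89. GAPDH control probes give a partial view of RNA integrity and are the only such pair given here, any pair for acta1 having been left out. The GAPDH 3' signal exceeded the 5' signal by 0.41 to 0.84 in SRBCT and by 1.04 to 1.1 in MPNST, with MPNST 1 at 1.1. The groups did not overlap, so RNA integrity cannot be told apart from tumour type in any difference given here. The median spike-in signal was 7.92 to 10.1 in SRBCT and 8.12 to 8.36 in MPNST, with MPNST 1 at 8.13.

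Genes that build the ribosome were compared next, from a list of assembly and nucleolar factors. Of 80 measured genes 0 were called in either direction, where 0.876% of all genes were. The median difference was 0.23, with 54 above 0. wdr36, a factor in small subunit rRNA processing, was at 8.41, 8.32 and 9.6 in SRBCT, against 6.6, 7.15 and 7.51 in MPNST. The groups did not overlap (difference 1.69, SE 0.42, adjusted p 0.175). ddx51, an RNA helicase of large subunit rRNA processing, had the smallest adjusted p of the list, 0.165 (difference 1.08, SE 0.26), and nop53, an assembly factor of the large subunit, differed by 1 (SE 0.26). In the opposite direction utp11 and imp3, both of the small subunit processing complex, differed by -0.79 and -0.78. The list's relative median was 0.02, 0.35 and 0.03 in SRBCT, against -0.56, -0.04 and 0.30 in MPNST, and MPNST 1 was strictly the lowest array for 54 of the 80.

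Translation factors gave 1 call, where 0.876% of all genes were called. Of 36 initiation factors and regulators 1 was lower and 0 higher in SRBCT (median difference 0.14). This was eif4e1b, a cap-binding protein of germ cells and eggs, which fell to 4.36, 4.08 and 4.9 in SRBCT, against 8.44, 7.45 and 7.25 in MPNST. The SRBCT values are dim, where RMA draws values together, so no fold is given. Its difference of -3.27 (SE 0.39, adjusted p 0.026) moved with the oocyte markers, whose summed signal was also higher on all 3 MPNST arrays, and their part in it was not tested. A list of 16 measured genes held elongation and termination factors together with btf3, btf3l4, naca and tpt1, which are neither. None of the 16 was called (median difference 0.36). The smallest p of this list were in btf3 and etf1b. btf3 differed by 0.43 (SE 0.17, adjusted p 0.318), with all SRBCT arrays above all MPNST arrays. etf1b differed by -0.79 (SE 0.32, adjusted p 0.327), with overlapping groups. The bright elongation factor gene eef1a1l1 differed by -0.01 (SE 0.18), and eef2b, the translocation factor, by 0.54 (SE 0.24).

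Among 17 measured regulators of these mRNAs and Myc family genes none was called, where 0.876% of all genes were. pabpc1b, a poly(A)-binding protein that coats mRNA tails, came nearest, at 9.63, 10.03 and 9.49 in SRBCT, against 8.06, 8.48 and 8.44 in MPNST. Its groups did not overlap (difference 1.39, SE 0.23, adjusted p 0.0712), while its paralog pabpc1a differed by 0.10 (SE 0.27). rps6kb1b, the kinase that phosphorylates Rps6, was at 9.16, 8.55 and 8.58 in SRBCT and 6.82, 7.52 and 7.98 in MPNST (difference 1.32, SE 0.35, adjusted p 0.196). larp1, a repressor of mRNAs with the pyrimidine start, differed by 0.58 (SE 0.39). Myc proteins raise transcription of ribosomal protein genes. The differences were 2.07 (SE 0.58) for myca, 2.40 (SE 0.7) for mycb and -3.58 (SE 1.46) for mycn. Their adjusted p was 0.214, 0.224 and 0.328. mycn was at 5.12, 4.06 and 9.62 in SRBCT, against 8.88, 10.98 and 9.67 in MPNST, so SRBCT 3 lay within the MPNST range. mycb was at 9.58, 10 and 7.59 in SRBCT, against 6.64, 5.94 and 7.38 in MPNST, with SRBCT 3 the lowest of its group.

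Of 3 measured genes for ribosomal proteins or ribosome-bound factors with other names 0 were called, where 0.876% of all genes were. faua, which encodes Rps30 as a fusion, differed by 0.07 (SE 0.21) and the 40S scaffold gene rack1 by 0.02 (SE 0.18). The mitochondrial ribosome, a separate set of 59 measured genes, had a median difference of -0.04, 0 calls, and a wider span of differences, from -1.17 to 0.89. Its relative median was -0.27, 0.31 and -0.16 in SRBCT, against -0.15, 0.10 and 0.12 in MPNST, so that the SRBCT arrays enclosed the MPNST arrays.

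**Figure D5:**
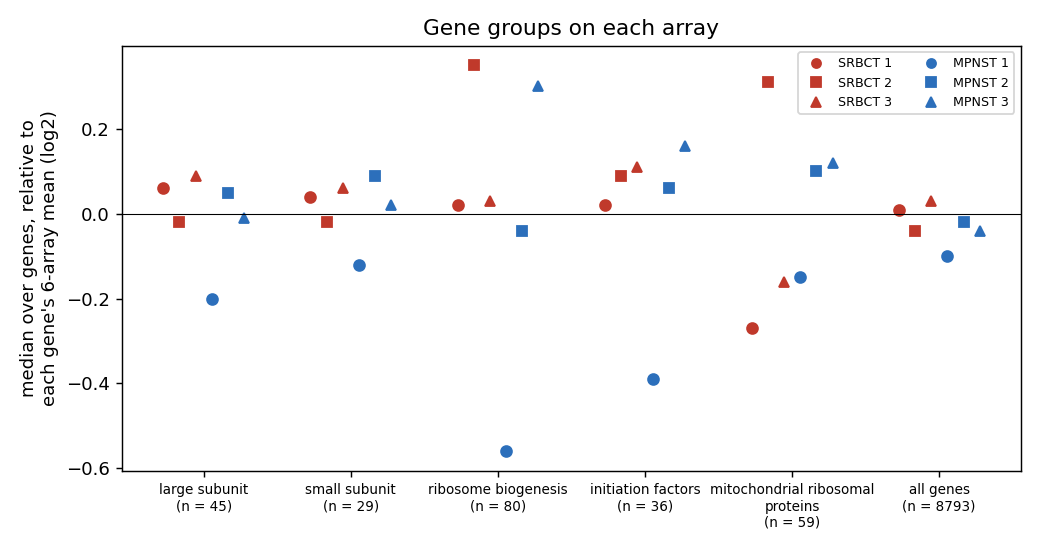
Median over the genes of each group, relative to each gene's mean over the 6 arrays (log2), for the 3 SRBCT arrays (red) and 3 MPNST arrays (blue). MPNST 1 is the lowest point for both subunits (-0.20 and -0.12), ribosome biogenesis (-0.56), initiation factors (-0.39) and also all genes (-0.1). It is not the lowest for mitochondrial ribosomal proteins.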

How the data were processed

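RNA from 6 tumours (3 SRBCT, 3 MPNST) was hybridized to Affymetrix arrays. The deposited values are log2 expression per probe set, made by the authors with RMA, the affy package and R 2.2.0, per the submitters' processing notes. RMA corrects background, quantile-normalizes and combines probes. Base 2 was taken from RMA and the range of values. Scanner files were not used here. After 115 control probe sets were left out, 15502 were tested with limma 3.58.1 in R 4.3.3 (lmFit, eBayes, 2 groups, no covariates). Of these, 10795 had 1 gene symbol in the platform annotation, 135 several and 4572 none; symbols were updated through Entrez identifiers to RefSeq (GRCz12tu). The brightest probe set stood for a gene. A probe set annotated to rpl32 and a second gene was left out. Named members are the 5 largest differences per direction and subunit, paralogs, anaemia, Mdm2, stalk genes and rpsa, of which the text names a part. The genes rps2, rpl10a and rpl37, and levels or probe sets of others, were added after their values were seen. Pathway genes named are called ones or those with the smallest p, with larp1, eef1a1l1, eef2b, pabpc1a, rack1, imp3, utp11, nop53 and the Myc genes added as values after they were seen. The members, lists and tests were chosen with earlier results of these data known. The fit was tested on simulated data.

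Nothing says that tumours of a group came from separate clutches, so p-values measure the spread between these samples. Alternatives were median centring, quantile normalization, cyclic loess, a filter on dim probe sets, a trended robust variance, array weights, the replicate block, leaving out each array, a minimum log2 difference of 1, averaging the probe sets of each gene and leaving out variant genes. The spike-in level as a covariate was added after seeing the data.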

Additional observations from a re-analysis of the deposited data

How the results depend on the processing

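No ribosomal protein probe set was called in either direction under any alternative that made calls, and the smallest adjusted p of a named member was 0.121. Averaging the probe sets of each gene and leaving out variant genes gave subunit medians only, without calls. The minimum log2 difference of 1 can only remove calls, so it could not have added a member. With the spike-in covariate 0 of all probe sets were called, so the lack of member calls there is not particular to the members. The total of called probe sets did move: against 140, it was 278 with array weights, 88 with the replicate block, 0 with the spike-in covariate (chosen after seeing the data) and 26 to 1140 when 1 array was left out, the extremes being without SRBCT 1 and without SRBCT 3. It was 38 without MPNST 2 and 57 without MPNST 3. The replicate numbers mark different fish, and the titles state no pairing between the groups. Deviations from the group means correlated at 0.06, 0.07 and -0.05 between same-numbered arrays. A processing batch shared by same-numbered arrays was not tested. With the replicate block 0 members had an unadjusted p under 0.05, as without dim probe sets. Cyclic loess brought the median difference to 0 over large and -0.08 over small subunit genes, and that over all genes to 0. Leaving out 1 array, the medians ran from 0.03 to 0.16 (large) and -0.04 to 0.07 (small), and the large minus small gap from 0.07 to 0.14. Of 540 values of 36 named genes, 495 did not change sign, and some of these rounded to 0. The dim filter, trended robust variance, replicate block and minimum difference leave a difference as it was, so no sign could change there. The other 45 values, from 20 genes, changed sign, none past the threshold. With cyclic loess these were rpl35a (-0.07), rplp0 (-0.08), rplp2b (-0.10), rps24 (-0.09), rps7 (-0.07) and rpsa (-0.02); with quantile normalization rplp2b (-0.05), rps24 (-0.04) and rps7 (-0.01); with array weights rplp2b (-0.02) and rps24 (-0.05). With the spike-in covariate they were rpl11 (-0.12), rpl22 (0.01), rpl22l1 (-0.75), rpl29 (0.04), rpl35a (-0.27), rplp0 (-0.10), rplp2 (-0.20), rplp2b (-0.23), rps16 (0.01), rps19bp1 (0.13), rps6 (-0.02) and rps7 (-0.20), while rps26 kept its sign at 0.11 and rpl7l1 at -1.09. The cause was not tested. When 1 array was left out, genes that changed sign ranged from -0.03 to 0.73 (rpl22l1), -0.10 to 0.02 (rpl23), -0.21 to 0.01 (rpl34), -0.03 to 0.14 (rpl35a), -0.05 to 0.12 (rplp2b), -0.15 to 0.06 (rps19), -0.04 to 0.08 (rps24), -0.28 to 0.10 (rps27.1), -0.28 to 0.06 (rps27.2), -0.55 to 0.65 (rps27l), -0.03 to 0.16 (rps7) and -0.06 to 0.22 (rpsa). The signal of rps19bp1 and of the second rpl21 probe set is dim, where RMA draws values together.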

Other observations

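The subunits of eIF3, the large scaffold that brings the small ribosomal subunit to mRNA, were looked at as a group after their values were seen. Of 13 measured genes 10 had a positive difference, with a median of 0.46. None was called, where 0.876% of all genes were. eif3m was at 11.04, 10.89 and 11.16 in SRBCT, against 10.21, 10.23 and 10.7 in MPNST, with groups that did not overlap (difference 0.65, SE 0.21, adjusted p 0.271). The loosely bound subunit genes eif3ja and eif3jb differed by -0.30 and -0.38. The group's relative median was 0.27, 0.04 and 0.16 in SRBCT, against -0.62, 0.10 and 0.01 in MPNST, so that MPNST 1 stood apart here as it did for the ribosomal protein genes.

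Over the 2346 pairs of structural ribosomal protein genes the median Pearson correlation across the 6 arrays was 0.31, and 1678 pairs were above 0. The pairs share the same arrays and normalization. Correlations of other genes were not computed for comparison, so a shared regulation of the members was not tested.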
